A study of Mus musculus with 2 samples.

Results

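Interstitial macrophages that carry transcripts of Folr2, Lyve1 or Cd163 were picked from mouse lung leukocytes by raw counts of unique molecular identifiers (UMIs, tags that each count 1 transcript). A barcode was a member if it had at least 10 UMIs of C1qa, C1qb and C1qc together and at least 2 of Folr2, Lyve1 and Cd163 together. It could hold at most 3 UMIs of the alveolar macrophage genes Ear1, Plet1 and Fabp1, at most 2 of the body cavity macrophage genes Serpinb2 and Prg4, none of Cd79a (B cells) or Cd3e (T cells), and under 1% of its UMIs in the neutrophil genes S100a8 and S100a9. Barcodes were kept from 500 UMIs and 200 genes upward and up to 10% of UMIs from mitochondrial genes. Of 19087 kept, 116 were members, 68 from the control and 48 from the exposed library.

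Each group of the study was 1 single-cell library of CD45+ cells, the white blood cells of the lung, sorted after perfusion and enzyme digestion at 37°C. Both libraries are labelled Ccr2-/- (KO), CD45.1+ for the control library and CD45.3+ for the DEP one, while the series design names C57BL/6J wild-type animals as well, and ages and any pooling of animals are not given. The exposed mice inhaled diesel exhaust particles (DEP) in a whole-body system at 500 µg/m³ for 1 hour on 5 days per week over 2 weeks, and the control mice had no exposure. With 1 library per group there is no spread between animals to test against, so each difference given compares 2 libraries, and exposure cannot be told apart from any other difference between the animals, allele labels, sorts or runs.

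Lung interstitial macrophages live in the connective tissue around airways, vessels and nerves, apart from the alveolar macrophages of the air spaces. One form, found beside blood vessels in many organs, carries the folate receptor gene Folr2, the hyaluronan receptor gene Lyve1 and the haemoglobin scavenger receptor gene Cd163, takes up dying cells and proteins, secretes chemokines, and usually holds few MHC class II molecules. A second form is rich in MHC class II and Cx3cr1 and is refilled more readily from blood monocytes, which need the chemokine receptor Ccr2 to leave the bone marrow.

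The members carried the general macrophage program in both libraries, as their label asks. Csf1r, the receptor gene for the main macrophage growth factor, had a UMI in 67 of 68 control cells and in 48 of 48 exposed ones, at 1679.5 CPM [95% interval 1590 to 1773] and 1888 CPM [1763 to 2019]. CPM is UMIs of the gene per 1000000 UMIs summed over the members of a library, and every bracket is a 95% interval that covers counting error only. Adgre1, which encodes F4/80, was seen in 65 and 46 cells, and the transcription factor gene Maf in 62 control and 47 exposed cells. Mrc1, the mannose receptor gene, was seen in 67 and 47 cells. Mertk was seen in 41 and 21 cells and Fcgr1 in 40 and 31, so fewer members held these. Cx3cr1, named above for the second form, was seen in 54 and 40 members, at 434 and 580 CPM. Macrophages that met the rest of the rule with no UMI of Folr2, Lyve1 or Cd163 had 426 and 493 CPM of it. Cx3cr1 was therefore not lower in the members. Timd4, a receptor gene for dying cells found on long-lived resident macrophages elsewhere, was seen in 13 control and 11 exposed cells, so most members held no UMI of it.

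The 3 defining genes, which chose the cells and are given only as a description, were spread unevenly over the members. Folr2 stood at 772 CPM in control members and 734 CPM in exposed members, in 60 and 42 cells. Cd163 stood at 473 and 498 CPM, in 52 and 37 cells, and Lyve1 at 478 and 307 CPM, in 33 and 24 cells. A single control cell held 108 of the 373 control UMIs of Lyve1. All 3 genes were present in 28 control (41.2%) and 19 exposed cells (39.6%), Folr2 and Cd163 without Lyve1 in 17 and 12, and Folr2 alone in 11 and 6. A cell with Lyve1 but no Folr2 occurred once, in the control library. Folr2 (ENSMUSG00000032725) lies on chromosome 7 from 101839988 to 101857194 and Lyve1 (ENSMUSG00000030787) on the same chromosome from 110850607 to 110863239. Cd163 (ENSMUSG00000008845) lies on chromosome 6 from 124304656 to 124330527 (mm10, all protein-coding).

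Members just inside the marker limit differed from those well inside it in the control library. With 2 or 3 marker UMIs, 15 control cells had Cd74, the invariant chain gene of MHC class II, at 18258 CPM and Mrc1 at 760.0 CPM, while the 53 cells with 4 or more had 6760.4 and 2103 CPM. The 8 control cells just outside, with 1 marker UMI, had 28102 CPM of Cd74 and 576 of Mrc1. In the exposed library the 7 cells just inside had 6110 CPM of Cd74, near the 6855 CPM of the 41 cells with more, and the 8 cells just outside had 41824 CPM. No kept barcode that met the rest of the rule had 5 to 9 C1q UMIs in either library.

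The cells were a small share of either library. They made up 0.702% [0.545 to 0.889] of 9691 kept control barcodes and 0.511% [0.377 to 0.677] of 9396 exposed ones (exact Clopper-Pearson intervals), a ratio of 0.728 [0.492 to 1.07] that includes 1. Macrophages that met the rest of the rule with no UMI of the 3 markers numbered 37 from the control and 50 from the exposed library, a ratio of shares of 1.39 [0.893 to 2.19]. Members were thus 68 of 113 control (60.2% [50.5 to 69.3]) and 48 of 106 exposed cells (45.3% [35.6 to 55.2]) that met the rest of the rule, the other 8 in each having 1 marker UMI. The alveolar gene limit removed more barcodes from the exposed library, 18 against 6 of the 75 and 93 with enough C1q and marker UMIs.

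Depth and other cell types were checked in the members. They held a median of 10956.5 UMIs in control members and 9176 in exposed members, sums of 780590 and 453431, and no member was scored as a doublet or shared its barcode with the other library. The libraries held 62047730 and 67030914 UMIs in 10312 and 10000 barcodes. Marker lists of other cell types had low summed levels, with 26.9 and 13.2 CPM for T and NK cells. B cell markers summed to 331 and 371 CPM, against 167 and 208 CPM in macrophages without the markers. Of the 7 B cell genes 2 reached 20 UMIs, while Ms4a1 was at 0. Cd79a and Cd3e were at 0 by the rule and check nothing. Alveolar macrophage markers summed to 127 and 90.4 CPM, where Siglecf was at 0, dendritic cell markers to 210.1 and 198 CPM, and neutrophil markers to 535 and 404 CPM, most of it Mmp9 in the control library.

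Ccr2, the gene named in the genotype labels, was low in the members and seen in few of them. It stood at 92.2 CPM [72.2 to 116] in 9 of 68 control cells and at 37.5 CPM [21.8 to 60.0] in 5 of 48 exposed cells, and the cell richest in it held 31.9% and 41.2% of its UMIs. The macrophages without the markers had 423 and 529 CPM, so Ccr2 was 4.59 and 14.1 times as high there. The sources used here do not say which part of Ccr2 is deleted, so UMIs read from its 3′ end do not check the genotype. Classical monocyte markers summed to 174 CPM in control and 196 CPM in exposed members, where 3 of 8 genes reached 20 UMIs and Vcan was at 0. The monocyte gene Plac8 stood at 7.69 and 110 CPM, with 96.0% of its exposed UMIs in 1 cell. A UMI of Ccr2, Plac8, Ly6c2 or Cd209a (genes of monocytes and their dendritic relatives) was found in 21 control and 9 exposed members. Some results that change without those cells are given with both values below. Fcna went from a log2 ratio of exposed over control of -3.21 to -0.19 [-1.17 to 0.71] without those cells. Il6 went from -2.40 to -0.53 [-1.99 to 0.72], Ccl22 from -2.01 to -0.86 [-1.99 to 0.096] and Hspa1b from -1.27 to -0.76 [-1.25 to -0.30]. The interval of Rsad2 then reached 0.64.

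**Figure D1:**
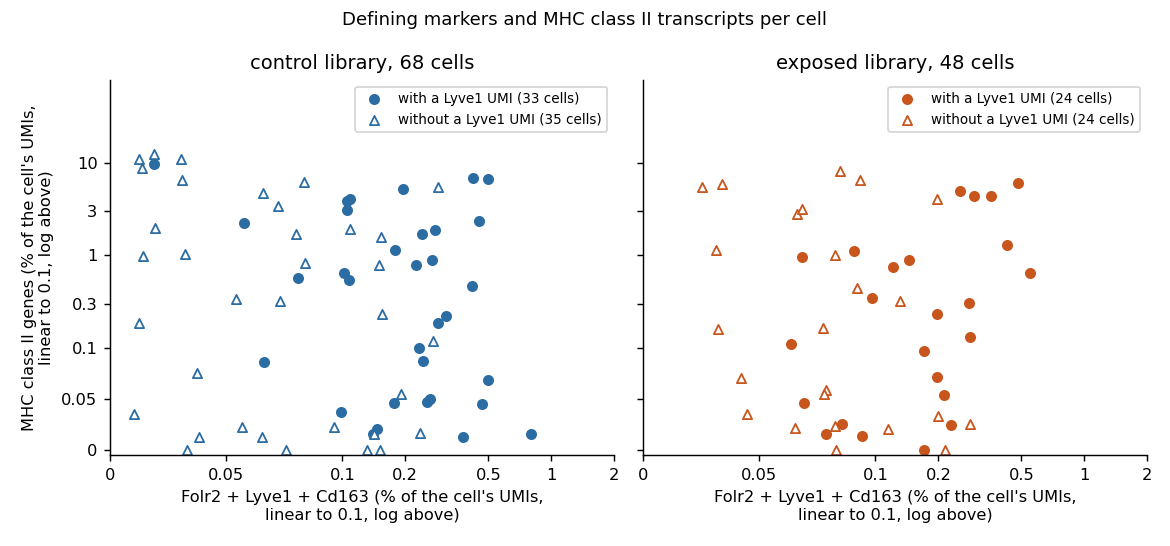
Each point is 1 cell, with the share of its UMIs in Folr2, Lyve1 and Cd163 on the x axis and in MHC class II genes on the y axis (% of the cell's UMIs, linear to 0.1 and logarithmic above), and filled circles mark cells with a Lyve1 UMI. MHC class II shares run from 0 to 12.4% in the 68 control cells and from 0 to 8.28% in the 48 exposed cells.

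Few genes differed between the libraries in these cells. Of 3290 genes whose UMIs summed to 50 or more, 11 were higher in exposed members (0.334%) and 27 lower (0.821%), 1.16% in all, where a gene was called if its whole interval of exposed over control lay beyond 1.5-fold. The median log2 ratio of all 3290 genes was 0.0043, with 50.6% of them higher. One cell held over 25% of the UMIs of the higher library for 4 of the 11 and 10 of the 27. Without the members that held monocyte or dendritic transcripts, 10 of the 27 lower and 7 of the 11 higher genes were still called, and 24 and 10 kept their sign.

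Chemokine genes were lower in exposed members as a group. Of 19 chemokine genes that reached a sum of 20 UMIs, 15 were lower and 8 were called lower, where 0.78% of all 5901 genes at that minimum were called lower, 0.305% higher and 1.08% either way, and the list's median log2 ratio was -0.76 against 0.0013 for all of them. Chemokines are secreted proteins that draw other leukocytes along a gradient. Larger ratios than that of Ccl4 were found for Ccl5, at 183 and 17.6 CPM, and Ccl22, at 110.2 and 26.5 CPM, where 1 control cell held 41.3% and 31.4% of the UMIs. Ccl5 stood at 1341 CPM over all other barcodes, above its level in members, so free RNA can add to its counts. Cxcl9, called at 31 and 4 UMIs, had 93.5% of its control UMIs in 1 cell. In macrophages without the markers the list median was -0.091 over 17 genes, with 5 called lower and 2 higher. The summed level of the list was lower in exposed cells of both groups. It was 35567 and 25450 CPM in control and exposed members, and 17730 and 11906 CPM in the macrophages without the markers. The median in members stayed between -0.79 and -0.51 over 16 alternative choices of cells, scaling and counts.

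Ccl4, which encodes MIP-1β, an attractant of monocytes and T cells, was called lower, with 16.3% of its control and 26.1% of its exposed UMIs in 1 cell. It stood at 4143 CPM [4001 to 4288] in control members and 1303 CPM [1200.4 to 1413] in exposed members, 3.18-fold [2.91 to 3.48] lower (log2 ratio -1.67). A Ccl4 UMI was found in 56 of 68 control and 26 of 48 exposed members. With each cell thinned to 3000 UMIs the shares were 71.6% [59.3 to 82.0] of 67 and 42.6% [28.3 to 57.8] of 47 cells, against 7.41% and 5.38% of B cells, which stand for free RNA. In macrophages without the markers Ccl4 stood at 1792 and 2003 CPM, a log2 ratio of 0.16 [0.02 to 0.30], though the difference between the cell groups was not tested. The log2 ratio of Ccl4 in the members lay between -1.85 and -1.51 over 14 alternatives, each with its interval beyond 1.5-fold. Its neighbour Ccl3, for the related MIP-1α, stood at 1610.3 CPM in control members and 951 CPM in exposed members, 1.69-fold [1.52 to 1.89] lower. That call ended with a marker minimum of 4 UMIs and without the richest cell, which held 22.3% of the UMIs in each library.

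The monocyte chemoattractant genes were also lower. Ccl7 stood at 3485 CPM [3355 to 3618] in control members and 1947 CPM [1821 to 2080] in exposed members, 1.79-fold [1.66 to 1.93] lower, in 56 and 34 cells. Ccl12 stood at 1934 and 1142 CPM, 1.69-fold [1.53 to 1.87] lower, a call lost when all cells counted equally or the exposed library was thinned. Ccl2 stood at 3200.1 and 2011 CPM (log2 ratio -0.67 [-0.78 to -0.56]) and Ccl8 at 637 and 371 CPM (-0.78 [-1.04 to -0.53]). The intervals of these last 2 reached inside 1.5-fold, so they were not called. In the macrophages without the markers Ccl12 was lower as well (log2 ratio -1.15), while Ccl2 had 397 and 575 CPM and Ccl7 303 and 328 CPM.

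Chemokine transcripts varied widely between cells. Ccl2, Ccl7, Ccl8 and Ccl12 together took from 0 to 6.69% of a control cell's UMIs, with a median of 0.628%, and from 0 to 3.46% of an exposed cell's, with a median of 0.342%. Ccl3 and Ccl4 together had medians of 0.249% and 0.0582% and highest values of 6.00% and 1.86%. The ranges of the libraries overlapped for both sums, and 8 control and 12 exposed cells had no UMI of Ccl3 or Ccl4.

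**Figure D2:**
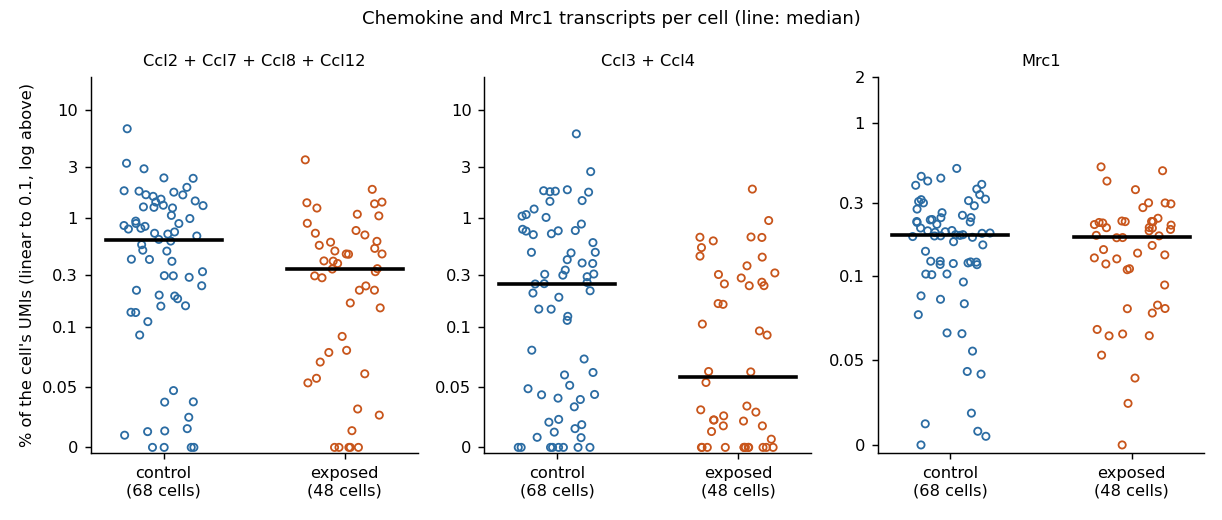
Each ring is 1 cell and each line the median of a library, with the share of the cell's UMIs (%, linear to 0.1 and logarithmic above) in Ccl2, Ccl7, Ccl8 and Ccl12, in Ccl3 and Ccl4, and in Mrc1. Medians are 0.628% and 0.342%, 0.249% and 0.0582%, and 0.184% and 0.180% for control and exposed cells, and the cells of the libraries overlap in each panel.

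The CXC chemokine genes were split. Cxcl1, for a neutrophil attractant, stood at 1562 CPM in control members and 801 CPM in exposed members, 1.95-fold lower (log2 ratio -0.96 [-1.14 to -0.79]), a call lost when all cells counted equally (log2 ratio -0.49). It was lower in the macrophages without the markers too, at 1400 and 487 CPM. Cxcl2, for a second neutrophil attractant, differed less, at 9658 and 8069.6 CPM (log2 ratio -0.26 [-0.32 to -0.20]). Cxcl16 had 642 and 664 CPM and Pf4 5005 and 5167 CPM, with intervals that include 0 on the log2 scale. Ccl24, an eosinophil attractant gene typical of this macrophage form, was the member with the largest value in the other direction, at 232 and 399 CPM (log2 ratio 0.78 [0.48 to 1.09], not called), with 34.8% of its exposed UMIs in 1 cell.

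The genes for Ccl2, Ccl7, Ccl12 and Ccl8 lie in 1 cluster on chromosome 11, from 82035571 to 82116799 (mm10), with Ccl3 and Ccl4 further along from 83647844 to 83664683. The window of 250 bases before the start of Cxcl1 (RefSeq, GRCm38.p6, chr5:90890995-90891244, plus strand) is shown because it holds a κB-like motif in capitals (GGGA, any letter, TTTCC), a match found on either strand in 0.356% of all 32851 such windows and in 3 of the 13 counted chemokine genes with a window (Cxcl1, Cxcl2 and Cxcl3). These letters are the usual form bound by NF-κB, and a match is a description of the window.
Cxcl1: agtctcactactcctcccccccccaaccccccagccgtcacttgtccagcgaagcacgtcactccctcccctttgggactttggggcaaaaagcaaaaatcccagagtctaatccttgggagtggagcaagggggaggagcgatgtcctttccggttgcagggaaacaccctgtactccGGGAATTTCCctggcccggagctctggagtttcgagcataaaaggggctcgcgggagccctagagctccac

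Inflammatory cytokine genes moved in both directions. Of 24 counted genes of the list 15 were higher and 9 lower, 2 were called in each direction, and the median log2 ratio was 0.047. Il1b, the interleukin 1 beta gene, was higher in exposed members, at 1609 CPM [1521 to 1700.5] in control members and 2834 CPM [2681 to 2993] in exposed members, 1.76-fold. It was found in 47 control and 35 exposed members, and the call held in each of 14 alternatives (log2 ratio 0.79 to 1.14). It was higher in other cells of the exposed library too, at 2914.5 and 3670 CPM in macrophages without the markers, 755 and 1051 CPM in alveolar macrophages and 3498 and 6589 CPM in monocytes. All other barcodes together had 4041 CPM of Il1b. After thinning 55.2% and 68.1% of members held an Il1b UMI, against 15.2% and 17.3% of B cells. Osm, the gene for oncostatin M, a cytokine of the interleukin 6 family, stood at 70.5 and 192 CPM, 2.72-fold higher, and also held in each alternative (1.17 to 1.70). In macrophages without the markers it was lower, at 91.4 and 49.6 CPM, a log2 ratio of -0.87 [-1.67 to -0.11], and the difference between the cell groups was not tested.

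Tnf, the tumour necrosis factor gene, was lower in exposed members. It stood at 314 CPM [276 to 356] in 38 control cells and 112 CPM [83.7 to 148] in 21 exposed cells, 2.79-fold [2.06 to 3.85] lower, and when all cells counted equally the call was lost (log2 ratio -0.94). After thinning to 3000 UMIs 35.8% [24.5 to 48.5] of control members and 14.9% [6.20 to 28.3] of exposed ones still held a Tnf UMI, against 0.868% and 0.758% of B cells. Il6 was called lower too, at 98.6 and 17.6 CPM, but 1 cell held 53.2% of its control UMIs. Nfkbia, the feedback inhibitor of NF-κB, differed little, at 2735 and 2990.5 CPM (log2 ratio 0.13 [0.03 to 0.23]), as did Il1a, at 79.4 and 81.6 CPM.

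The list of immediate early and dissociation genes, which enzyme digestion is known to induce, was near balance between the libraries. Of its 25 counted genes 12 were higher and 13 lower, 1 was called in each direction, and the median log2 ratio was -0.017. Heat shock genes formed a separate list, with a median log2 ratio of -0.40. The AP-1 subunit gene Junb stood at 3645 and 3791 CPM and Jun at 1049 and 1037 CPM. Klf2 was called higher, at 206 and 470 CPM, and at 651 CPM over all other barcodes. The 25 genes together took a median of 2.46% of a control and 2.44% of an exposed member's UMIs.

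**Figure D3:**
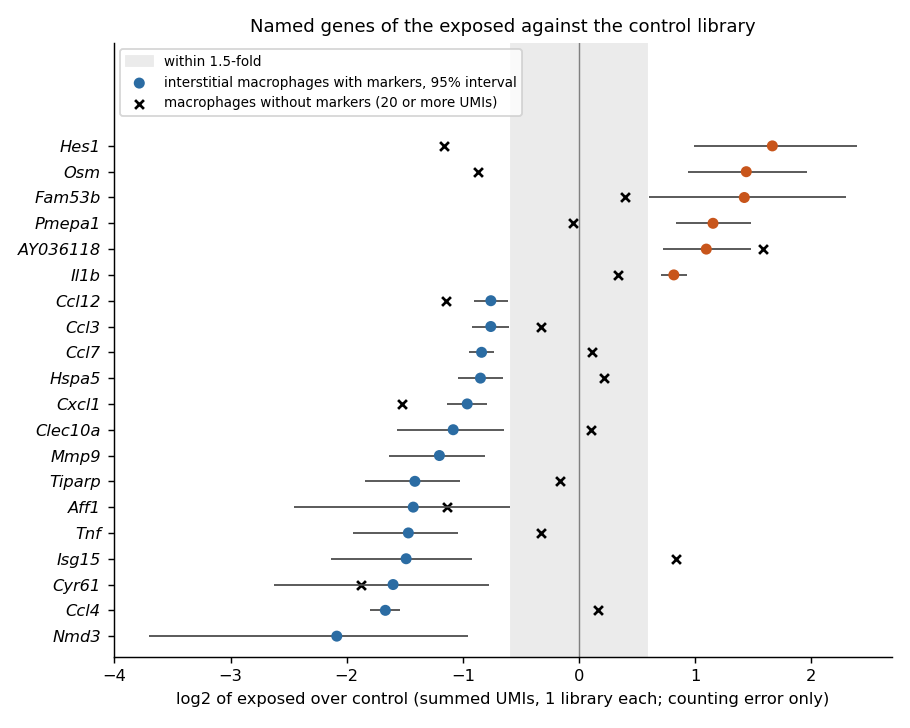
Points are log2 ratios of exposed over control from UMIs summed over the members of each library, with 95% counting intervals, crosses the same ratio in macrophages without the 3 markers where at least 20 UMIs were counted, and the grey band marks 1.5-fold. The 20 named genes run from Nmd3 at -2.09 to Hes1 at 1.67, and the crosses of Ccl4, Isg15 and Osm are among those on the other side of 0.

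Most genes of the resident program differed little between the libraries. Of 30 counted genes of the Folr2 and Lyve1 macrophage list, which holds none of the 3 defining genes, 11 were higher and 19 lower, 4 were called lower, and the median log2 ratio was -0.038. Mrc1 stood at 1824 CPM [1731 to 1922] in control members and 1813 CPM [1691 to 1941] in exposed members. Pf4, for a platelet-type chemokine made by these macrophages, Selenop, for a selenium carrier, F13a1, for a coagulation factor subunit, and the carbonyl reductase gene Cbr2 had log2 ratios of 0.046, -0.13, -0.096 and -0.096. The scavenger receptor gene Stab1 stood at 723 and 704 CPM and the dying-cell bridge gene Gas6 at 477 and 452 CPM. These intervals lie within 1.5-fold.

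Genes of MHC class II, the molecules that show peptides to helper T cells, had lower sums in exposed members. Of 10 counted genes of the list 7 were lower and 2 called lower, with a median log2 ratio of -0.52. H2-Ab1 stood at 3315 and 2047 CPM and H2-Eb1 at 3255 and 2007 CPM, both 1.62-fold [1.50 to 1.75] lower, with H2-Aa at 4453 and 3054 CPM and Cd74 at 9144 and 6797 CPM. The transcripts were uneven between cells. MHC class II genes took from 0 to 12.4% of a control member's UMIs with a median of 0.502%, and from 0 to 8.28% of an exposed one's with a median of 0.198%. The difference ended without the members that held monocyte or dendritic transcripts, where H2-Ab1 had a log2 ratio of 0.056 [-0.097 to 0.21] and Cd74 0.19 [0.11 to 0.27]. It turned with a marker minimum of 1 UMI, to 0.21 for H2-Ab1 and 0.33 for H2-Eb1. Ctss, a protease gene of the same pathway, and Cd86, a costimulatory receptor gene, had log2 ratios of 0.10 and 0.12.

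Interferon-induced genes were split between a few strongly lower and a few higher genes. Of 21 counted genes 13 were lower and 8 higher, 5 were called lower and 1 higher, with a median log2 ratio of -0.25, while the summed level was higher in exposed members, 5754 against 4652 CPM. Isg15, for a ubiquitin-like antiviral protein, stood at 182 CPM [153 to 214] in 29 control cells and 64.0 CPM [42.8 to 91.9] in 12 exposed cells, 2.84-fold [1.90 to 4.40] lower. That call was lost when all cells counted equally (log2 ratio -0.94) and without the members with monocyte or dendritic transcripts (log2 ratio -1.13 [-1.90 to -0.46]), and macrophages without the markers had 102 and 183 CPM. The antiviral genes Ifit1 and Rsad2 had 84 and 98 UMIs in control members and 4 each in exposed members, but 1 control cell held 31.0% and 74.5% of them. Ifi27l2a was higher, at 715 and 1800 CPM, with 29.4% of its exposed UMIs in 1 cell, and Ifitm3, for an antiviral membrane protein, stood at 687 and 1081 CPM without a call. Ly6e, at 1900 and 1857 CPM, did not differ beyond counting error. The list's median was above 0 in 4 of 16 alternatives, at most 0.18. In macrophages without the markers the list median was 0.83 over 12 genes, with 4 called higher and 0 lower. Ifi27l2a was higher there too, at 467 and 1102 CPM, and Ifit1 was lower there too, at 47.0 and 13.4 CPM. Rsad2 went the other way there, with 1 and 12 UMIs.

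The windows before Isg15, Ifit1 and Rsad2 are shown because these 3 genes were called lower together and each holds GAAA, any pair of letters, GAAA on either strand, in capitals, the core of the element that interferon-activated factors bind. Of 15 counted interferon genes with a window 8 held a match, against 2.98% of all windows. The list was chosen as interferon-induced genes, so this share is a description, and a cause of the lower counts was not tested. Each run is 250 bases before the start (RefSeq, GRCm38.p6), for Isg15 chr4:156200819-156201068 on the minus strand, for Ifit1 chr19:34640639-34640888 on the plus strand and for Rsad2 chr12:26456453-26456702 on the minus strand. In Isg15 the matches overlap.
Isg15: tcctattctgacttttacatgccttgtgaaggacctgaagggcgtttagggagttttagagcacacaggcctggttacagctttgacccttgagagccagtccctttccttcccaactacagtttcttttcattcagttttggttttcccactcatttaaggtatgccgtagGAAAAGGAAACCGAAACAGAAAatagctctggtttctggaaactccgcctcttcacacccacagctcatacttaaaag
Ifit1: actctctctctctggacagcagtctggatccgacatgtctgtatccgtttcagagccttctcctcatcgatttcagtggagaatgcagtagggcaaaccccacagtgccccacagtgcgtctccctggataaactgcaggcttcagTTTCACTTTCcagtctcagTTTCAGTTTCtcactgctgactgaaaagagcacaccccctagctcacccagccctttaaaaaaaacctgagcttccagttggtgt
Rsad2: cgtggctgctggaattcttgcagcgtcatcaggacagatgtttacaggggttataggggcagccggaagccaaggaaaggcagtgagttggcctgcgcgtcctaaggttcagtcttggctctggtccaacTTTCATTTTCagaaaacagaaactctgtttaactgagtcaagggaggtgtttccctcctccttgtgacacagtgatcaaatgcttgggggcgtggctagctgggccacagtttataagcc

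Chaperone genes were mostly lower in exposed members. Of 14 counted heat shock genes 12 were lower and 3 called lower, with a median log2 ratio of -0.40 that stayed below 0 in 16 alternatives (-0.64 to -0.25). Hspa5, for the main chaperone of the endoplasmic reticulum, stood at 1153 CPM [1079 to 1231] in 65 control cells and 639.6 CPM [568 to 718] in 46 exposed cells, 1.80-fold [1.58 to 2.06] lower, and was called in each of 14 alternatives. Macrophages without the markers had 593 and 687 CPM of it, while the heat shock list was lower there as well, with a median log2 ratio of -0.32 over 14 genes and 2 called lower. Hspa8 stood at 1676 and 1114 CPM (log2 ratio -0.59 [-0.74 to -0.44]) and Hsp90ab1 at 1172 and 1164 CPM. Hspa1b, an inducible chaperone gene with a near-identical copy, Hspa1a, was called lower at 311 and 128 CPM, with 27.6% of its control UMIs in 1 cell.

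Targets of the aryl hydrocarbon receptor, a sensor of aromatic compounds, and of NRF2, a regulator of oxidative stress genes, gave few calls. Tiparp, a target gene of the aryl hydrocarbon receptor, stood at 366 CPM [325 to 411] in 53 control cells and 137 CPM [105 to 175] in 26 exposed cells, 2.68-fold [2.03 to 3.59] lower, and was called in each of 14 alternatives. The other 5 counted genes of that list of 14 were not called, Ahr itself standing at 69.2 and 61.8 CPM. Of 22 counted NRF2 and oxidative stress genes 17 were lower and none was called, with a median log2 ratio of -0.13. The ferritin heavy chain gene Fth1 stood at 9173 and 9108 CPM and the haem oxygenase gene Hmox1 at 247 and 243 CPM.

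Among other genes named by size, higher ones included Hes1, a target of Notch signalling, at 35.9 and 115 CPM in 11 and 19 cells, and Pmepa1, an inhibitor of TGF-beta signalling, at 183 and 408 CPM in 36 and 35 cells. Hes1 lost its call when all cells counted equally (log2 ratio 1.23), and Pmepa1 without the members with monocyte or dendritic transcripts (0.68). One control cell held 46.4% of the 28 control UMIs of Hes1. In macrophages without the markers Hes1 had a log2 ratio of -1.16 [-2.56 to 0.098], in alveolar macrophages -1.04 and in monocytes -0.51. The difference between the cell groups was not tested. AY036118 stood at 137 and 293 CPM and Fam53b at 26.9 and 72.8 CPM. AY036118 was higher in the macrophages without the markers too, at 196 and 592 CPM. It was also higher in exposed alveolar macrophages (201 and 355 CPM), monocytes (131 and 252 CPM) and B cells (123 and 176 CPM), so it was not particular to the members. Lower ones included Nmd3, for a ribosome export adaptor, at 60.2 and 13.2 CPM, Cyr61, for a matrix-associated protein, at 89.7 and 28.7 CPM, and Aff1 at 79.4 and 28.7 CPM. Cyr61 was called in each of 14 alternatives and Aff1 in 6 of them. Both were lower in the macrophages without the markers too, with log2 ratios of -1.88 [-3.21 to -0.78] and -1.14 [-2.15 to -0.20].

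The 4 resident genes called lower were Mmp9, Clec10a, Fcna and Vsig4. Mmp9, a gelatinase gene, stood at 322 CPM in 30 control cells and 139 CPM in 9 exposed cells, and Clec10a, a lectin gene, at 245 CPM in 33 and 115 CPM in 17 cells. Without the members with monocyte or dendritic transcripts their log2 ratios were -0.52 [-1.08 to -0.0041] and -0.23 [-0.79 to 0.29], and neither was called. Vsig4 then had a log2 ratio of -0.42 with an interval that spanned no difference, so it was not called either. Retnla and Fcna, of alternative activation and of lectin complement, had far lower sums in exposed members but rested on single cells, 1 control cell holding 94.8% of the 1843 control UMIs of Retnla and 71.4% of the 325 of Fcna.

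Lipid, lysosomal, iron, glycolysis and transcription factor genes had list medians between -0.039 and 0.067. Apoe, for the lipid carrier that macrophages secrete, stood at 18172 CPM in control members and 27009.6 CPM in exposed members, a log2 ratio of 0.57 [0.54 to 0.61] that reached inside 1.5-fold. The lysosomal protease gene Ctsb stood at 2587 and 2375 CPM. C1qa, which chose the cells, stood at 6701 and 8778 CPM. Of 20 counted pan-macrophage genes 14 were higher and none was called, with a median of 0.13.

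**Figure D4:**
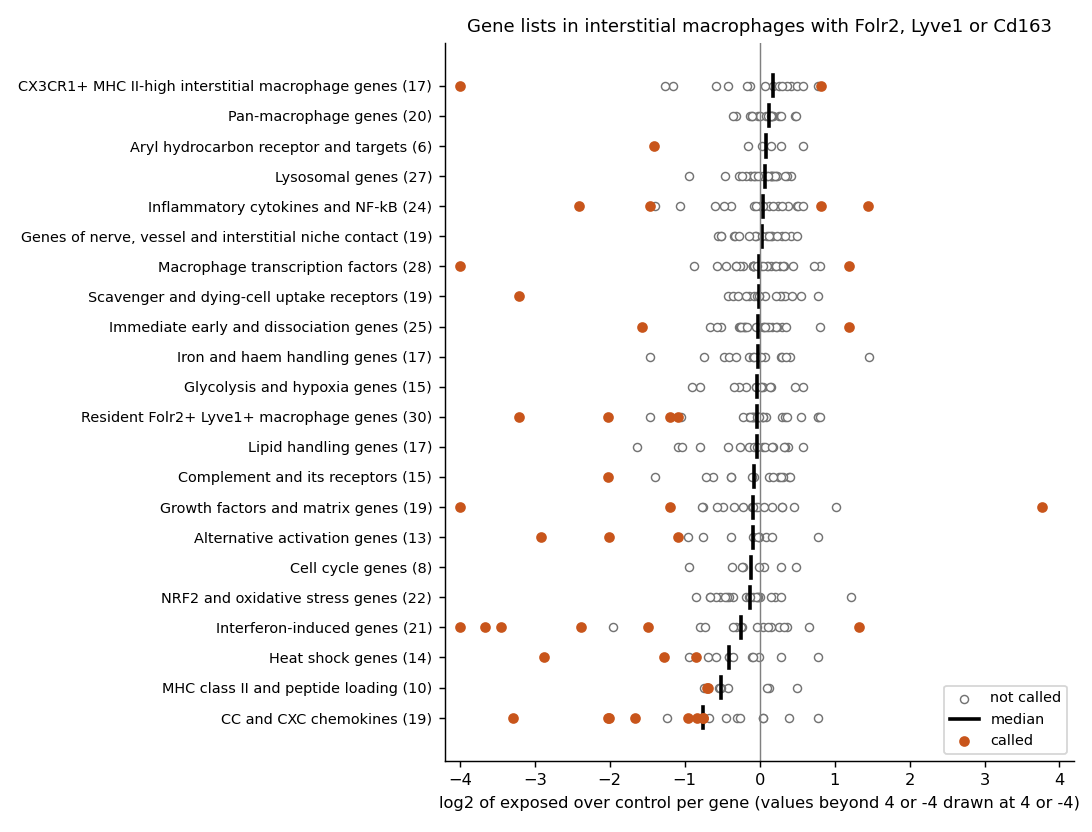
Each ring is 1 gene of a list whose UMIs sum to 20 or more (number in brackets), placed by its log2 ratio of exposed over control, with called genes filled and the list median as a black line. The chemokine median lies at -0.76, the MHC class II median at -0.52, the heat shock median at -0.40 and the resident median at -0.038.

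Against the macrophages without Folr2, Lyve1 and Cd163, the members carried a distinct program in both libraries. Of 2518 genes with enough counts in each library, 98 were higher with the markers in both (3.89%) and 52 lower (2.07%), 5.96% in all. Of 23 counted genes of the resident list 19 were higher with the markers in both libraries and none lower. The rule did not use these genes, but the list was chosen as the company of Folr2 and Lyve1, so its direction is no independent evidence.

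Chemokine genes were among those most apart. Ccl8 had 497 control and 168 exposed UMIs in the members and 1 UMI in each library without the markers, 637 against 2.61 CPM and 371 against 1.91 CPM (log2 ratios 7.35 [5.44 to 13.24] and 7.02 [5.10 to 12.91]). Ccl7 stood at 3485 against 303 CPM among control cells and 1947 against 328 CPM among exposed cells. Ccl12 stood at 1934 against 217 CPM and 1142 against 97.4 CPM. The members held more of these transcripts than the macrophages without the markers in the exposed library as well, where their own level was lower than that of control members.

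The other genes higher with the markers included enzymes, adhesion genes and secreted factors. Cbr2 stood at 625 against 39.2 CPM among control cells and 584 against 9.55 CPM among exposed cells. F13a1 stood at 1012 against 99.2 CPM and 946 against 72.6 CPM, and Pf4 at 5005 against 791 CPM and 5167 against 601 CPM. The leukotriene C4 synthase gene Ltc4s was 12.5 and 14.6 times as high, the adhesion receptor gene Vcam1 7.13 and 41.9 times (the latter over 4 UMIs), the NAD-consuming enzyme gene Cd38 10.3 and 9.05 times and Selenop 4.24 and 4.21 times. The ubiquitin ligase gene Wwp1 was 5.70 and 8.58 times as high. Some of these folds rest on few UMIs without the markers, 15 and 5 for Cbr2, 7 and 8 for Ltc4s and 4 and 6 for Cd38. The log2 ratios of Cd38 had intervals of 1.96 to 5.27 in the control and 1.95 to 4.69 in the exposed library. Chp2 had 3 and 4 UMIs without the markers, and its log2 ratio was 3.55 [2.17 to 6.07] in the control library. Thinned to 3000 UMIs, F13a1 was seen in 68.7% and 74.5% of members (79.4% and 89.6% before thinning), 11.1% and 15.6% of macrophages without the markers and 0.237% and 0.152% of B cells.

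Of 8 counted MHC class II genes 6 were lower with the markers in both libraries. Cd74 stood at 9144 against 27186 CPM among control cells and 6797 against 26908 CPM among exposed cells, H2-Ab1 at 3315 against 9200.5 CPM and 2047 against 9762 CPM, and H2-Eb1 was 2.91 and 5.10 times as high without the markers. Rgs1, for a brake on G protein signals, was 5.74 and 10.1 times as high there, the galectin gene Lgals3 4.65 and 6.06 times, the G protein subunit gene Gngt2 7.51 and 16.2 times and Lsp1 4.34 and 4.41 times. Emb was 5.68 and 7.79 times and Plaur, the urokinase receptor gene, 3.89 and 6.72 times as high. Bcl2a1a and Bcl2a1d, survival genes with near-identical copies whose counts cannot be separated with certainty, were 3.97 and 5.27 and 4.64 and 6.87 times as high. With cells thinned to 3000 UMIs, which leaves fewer counts, 42 genes were higher and 21 lower in both libraries, and the reason was not tested.

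**Figure D5:**
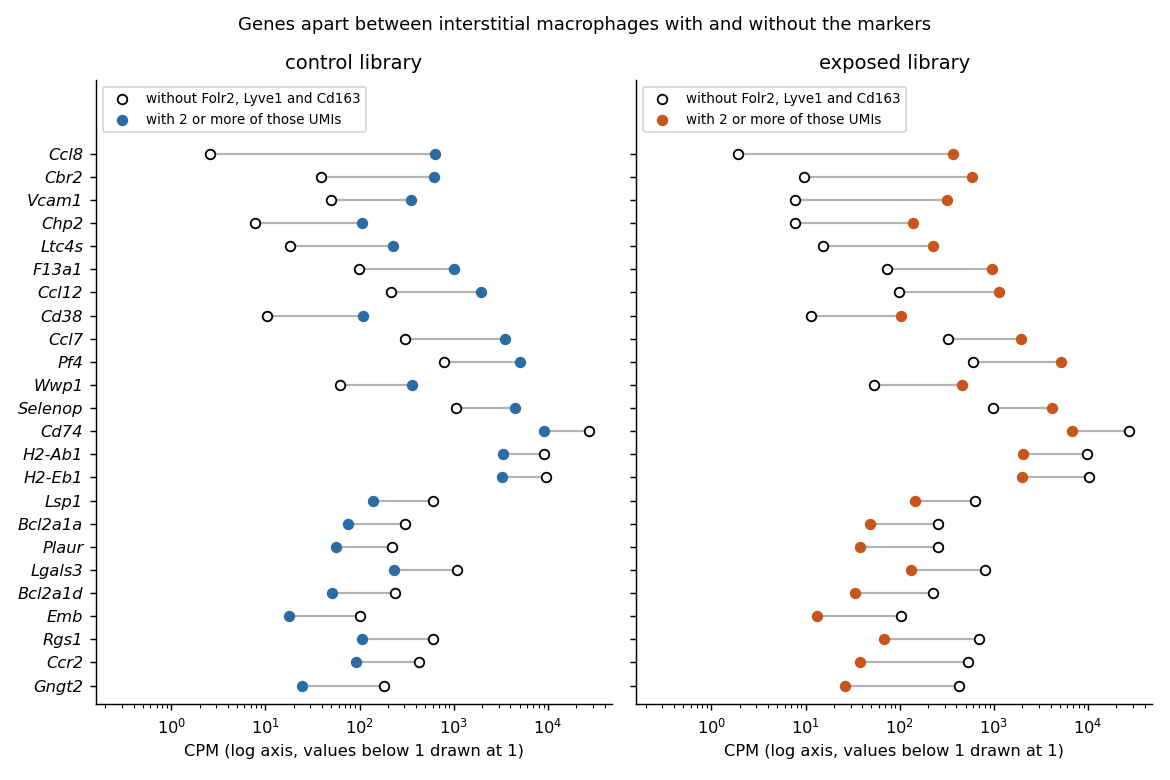
For each named gene the filled point is the CPM in members and the open point that in macrophages without Folr2, Lyve1 and Cd163 (log axis), with the control library on the left and the exposed library on the right. Ccl8 lies furthest apart, at 637 against 2.61 CPM and 371 against 1.91 CPM, and Cd74 and Ccr2 are among the genes with the open point to the right in both.

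Within the members, cells with a Lyve1 UMI (33 control, 24 exposed) were set beside those without one (35 and 24), a split on a gene of the rule and so a description. Of 3060 genes 18 were higher with Lyve1 in both libraries (0.588%) and 6 lower (0.196%), and in 13 and 3 of them 1 cell held over 25% of the UMIs of the higher side. F13a1 was the most abundant of the 5 higher genes spread over cells, at 1482 against 536 CPM in control members and 1353 against 505 CPM in exposed members. The others were Cbr2 at 876 against 371 and 785 against 367.5 CPM, the properdin gene Cfp at 669.6 against 304 and 619 against 294 CPM, Trib1 at 280.05 against 119 and 369 against 115 CPM, and the collectin gene Colec12 at 76.4 against 18.1 and 136 against 23.0 CPM. Lower with Lyve1 were Mpeg1, for a pore protein of phagosomes, at 132 against 433 and 115 against 358 CPM, the chemokine receptor gene Cxcr4 at 165 against 346 and 153 against 372 CPM, and Ramp1, for a subunit of the receptor of the neuropeptide CGRP, at 22.9 against 92.8 and 25.5 against 110.3 CPM.

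MHC class II transcripts were lower with Lyve1 in both libraries. H2-Eb1 had log2 ratios of -0.92 [-1.04 to -0.80] in control members and -1.53 [-1.75 to -1.32] in exposed members, and Cd74 of -0.52 and -0.75. For H2-Eb1 1 cell held over 25% of the UMIs on the higher side in at least 1 library. Across members thinned to 3000 UMIs the MHC class II share and the share of the 3 markers had Spearman's rho of -0.16 over 67 control and 0.064 over 47 exposed cells, a description over cells of 1 library each. Ccl4 stood at 3778 against 4513 CPM in control members and at 717 against 1939 CPM in exposed members. Mrc1 was higher with Lyve1, at 2268 against 1374 CPM and 2121 against 1479 CPM, and Apoe was not, at 18170 against 18174 CPM in control members and 24111 against 30149 CPM in exposed members. Ccl24 stood at 377 against 85.1 CPM and 708 against 64.3 CPM, with over 25% of it in 1 cell on the higher side.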

How the data were processed

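Single-cell RNA was measured in 1 control and 1 exposed library of sorted CD45+ lung cells (10x 3′ chemistry, per the labels' protocols). The deposited matrices hold raw UMI counts by gene and barcode, which the authors obtained with Cell Ranger, version 3.1.3 per the submitters' processing notes and 3.1.0 per the file headers, on mm10. No further filter or normalization is stated. The members and gene lists were chosen with earlier results of these data known.

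Counts were summed over members per library and given as CPM with exact Poisson intervals. Ratios of exposed over control have exact conditional binomial intervals, with 0.5 added for the point value, and a gene was called if its 95% interval lay beyond 1.5-fold at a summed count of at least 50, or 20 for lists. There is no p-value with 1 library per group. Cells were thinned to 3000 UMIs for shares, and doublets were scored against simulated ones. Named between libraries were up to 14 called genes in each direction, ranked by the interval bound nearest to 0, leaving out mitochondrial, ribosomal, haemoglobin, sex-linked and variable receptor genes, genes below 0.5 times their level in all other barcodes and genes with a single cell holding over 25% of UMIs in the higher library. Named between macrophages with and without the markers were 12 in each direction, ranked by the smaller bound of both libraries, without the free RNA limit. Each list gave the 2 most abundant genes and the 2 farthest from 0, and the genes of the rule, Ccr2 and Mrc1 were always named. Other genes in the text were chosen after their values were seen. The script was tested on simulated data. Alternatives varied the limits of the rule, depth, scaling, count minimum, free RNA and doublets. Of 31053 gene IDs 31011 matched GENCODE vM21. Python 3.11.15, numpy 2.4.6, pandas 2.3.3 and SciPy 1.17.1 were used.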

Additional observations from a re-analysis of the deposited data

How the results depend on the processing

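No paired analysis was possible because each group is 1 library. The share of members, with a ratio of 0.728, lay between 0.698 and 0.856 under its alternatives. The 11 genes called higher became 17 with a marker minimum of 1 UMI, 18 at a summed count of at least 20, 7 at 100 and 39 with no minimum. The 27 called lower became 46 at 20 and 61 with no minimum, and 14 without the members that held a Ccr2, Plac8, Ly6c2 or Cd209a UMI, an alternative chosen after seeing the data. Subtracting free RNA estimated from B cells gave 20 and 101, but it removed 3960 control and 4108 exposed UMIs per cell, B cell transcripts included, and Ccl3, Ccl7 and Ccl12 lost their calls there. Against macrophages without the markers the 98 higher and 52 lower genes became 42 and 21 after thinning, which leaves fewer counts. The sign turned for H2-Ab1 (0.21) and H2-Eb1 (0.33) with a marker minimum of 1 UMI, where the MHC class II median was 0.18, and without the members with monocyte or dendritic transcripts (0.056, 0.00056 and a median of 0.056). It turned for Retnla (2.56) without those members and for Plac8 (-0.35) without its richest cell. The median of the classical monocyte markers turned with a mitochondrial limit of 5% (0.32) and with no count minimum (0.057). The causes were not tested. All 20 named genes kept their sign in 14 alternatives, and 6 were called in each: Ccl4, Cyr61, Hspa5, Il1b, Osm and Tiparp. Of 22 gene lists 3 kept the sign of their median in every alternative run.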
